A study of Mus musculus with 16 samples.

Results

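Acta2, Tagln, Cnn1, Myh11, Myocd, Des and Rgs5 are genes by which smooth muscle cells and pericytes are usually recognised. They were taken by their symbols in the deposited tables and are 7 of 28432 loci, of which 23282 with a gene name were used. All 7 passed the filter on low counts and were among the 16130 genes tested. RNA had been sequenced from mouse embryoid bodies, aggregates of differentiating embryonic stem cells, on day 6 of the SFEBq culture (serum-free floating culture after quick reaggregation), which favours forebrain and eye tissue. The stem cells of all 4 groups were Rx:GFP knock-in cells, with GFP placed at the eye field gene Rax, grown in GMEM with knockout serum replacement and given Matrigel.

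The WT group was untreated. The KO group was a Wdr5 knockout clone without doxycycline. In the other two groups doxycycline was added to Wdr5 knockout cells, to induce human WDR5, at the times labelled T12h and T48h. The group with doxycycline from T12h is the early rescue and that from T48h the late rescue. Wdr5 encodes a WD40-repeat protein shared by histone H3 lysine methyltransferase complexes. The series title names a single knockout clone, and only the rescues received doxycycline, so effects of the drug and of the induced protein cannot be told apart.

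Each group had 2 biological duplicates, called library a and library b, each the sum of 2 technical columns. The labels do not say whether the duplicates came from separate cultures, so p-values measure the spread between these libraries. The 8 libraries held 32476672 to 65687435 estimated counts in named genes. Wdr5 itself averaged 186 CPM (read counts relative to library size after TMM scaling) in WT, 30.5 in KO, 333 in the early rescue and 287 in the late rescue, which follows the labels. Whether reads of the human transgene were counted at the mouse locus was not tested.

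Smooth muscle cells build a contractile apparatus of actin, myosin and their regulators, anchored by the intermediate filament desmin. The serum response factor SRF binds the CArG box in the promoters of many of these genes, and its coactivator myocardin raises their transcription in smooth muscle and in the embryonic heart. Pericytes wrap capillaries, carry the receptor PDGFRB and respond to signals from endothelial cells. Several of the 7 genes are not private to these cells: Acta2 and Tagln are also made in the early heart and in activated fibroblasts, Des in all striated muscle, and Myocd in heart muscle.

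Across the 7 genes the highest levels were in the late rescue for Acta2, Cnn1, Myocd, Des and Rgs5, whose 2 late rescue libraries each lay above every library of the other groups. Tagln was highest in the early rescue and Myh11 stayed under 2 CPM in every library. Against WT, the KO was lower in Acta2 and higher in Rgs5, Myocd, Des, Tagln and Cnn1. The early rescue lay close to WT for most of the genes. The sum of the 7 genes was 101 to 110 CPM in WT, 100 to 107 in KO, 145 to 146 in the early rescue and 1135 to 1146 in the late rescue.

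**Figure D1:**
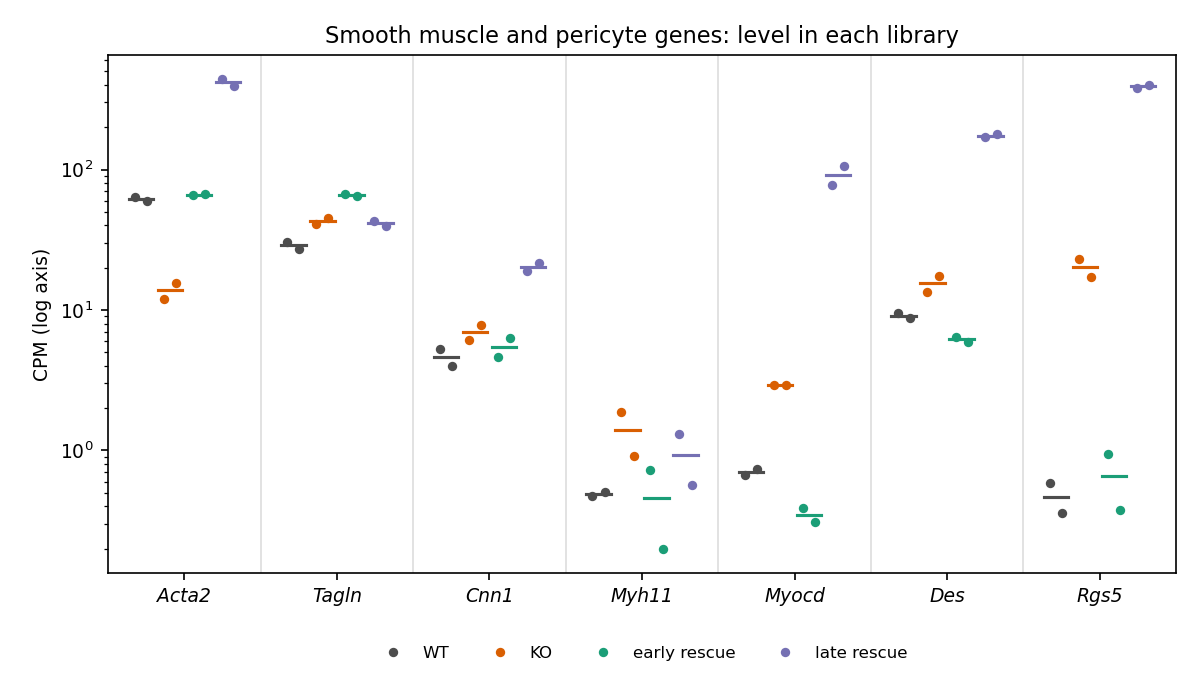
Level of each of the 7 genes in the 8 libraries, in CPM on a log axis; points are libraries and short lines are group means of 2 libraries. The 2 late rescue points stand above all others for Acta2, Cnn1, Myocd, Des and Rgs5, while Acta2 is lowest in KO and Tagln is highest in the early rescue.

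Myocd, on mouse chromosome 11 (mm10, 65176561 to 65269989, minus strand), encodes the coactivator myocardin. Its level was 0.666 and 0.742 CPM in WT, 2.91 in both KO libraries, 0.389 and 0.308 in the early rescue and 77.6 and 107 in the late rescue. The late rescue libraries stood far above the rest, KO was intermediate, and the groups did not overlap. By edgeR's quasi-likelihood test, with Benjamini-Hochberg adjustment over all genes tested, Myocd was higher in KO than in WT by 2.05 ± 0.24 (log2 fold change ± SE, adjusted p = 7.04e-06). The late rescue exceeded KO by 4.98 ± 0.19 (edgeR adjusted p = 1.05e-10). The early rescue was lower than KO with a log2 difference of -3.04 ± 0.25 (edgeR adjusted p = 2.44e-07). Below WT, the early rescue had a log2 difference of -0.99 ± 0.33 that did not pass (edgeR adjusted p = 0.0643), on 14 to 25 counts a library. That difference passed without either late rescue library, where edgeR adjusted p was 0.0304 and 0.033. It also passed with no filter (edgeR adjusted p = 0.022), with DESeq2 (adjusted p = 0.0372) and from the first technical column of each library (-1.65, edgeR adjusted p = 0.0245), and over all settings adjusted p ran from 0.022 to 0.854. Between KO and WT the call was lost on the scale of log2(FPKM + 1), where the difference was 0.33 (limma adjusted p = 0.0635), with values under 1 FPKM in both groups. In bulk RNA, fewer cells of a type and less RNA per cell cannot be told apart, here or for any gene that follows.

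Acta2 encodes smooth muscle alpha-actin and lies on chromosome 19 (mm10, 34241090 to 34255590, minus strand). Libraries a and b gave 63.2 and 59.3 CPM in WT, 12.02 and 15.5 in KO, 65.6 and 67.1 in the early rescue, and 443 and 396 in the late rescue. KO was lowest, WT and the early rescue were adjacent, and the late rescue was highest, with no overlap between groups. KO was below WT with a log2 difference of -2.17 ± 0.11 (edgeR adjusted p = 2.36e-09). The early rescue was above KO by 2.28 ± 0.11 (edgeR adjusted p = 1.26e-09) and differed from WT by 0.11, which did not pass (edgeR adjusted p = 0.529). The late rescue was above KO by 4.94 ± 0.12 (edgeR adjusted p = 4e-12) and above WT by 2.78 ± 0.11 (edgeR adjusted p = 1.6e-10). Acta2 was thus the one gene of the 7 that was lower in KO than in WT by this test.

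The Acta2 promoter is a textbook target of SRF, so the CArG-type sites of its RefSeq promoter window (build GRCm38.p6) are shown. A CArG box is CC, then 6 letters that are each A or T, then GG. No exact box was found in the window, but 2 stretches with 1 inner letter off were, at chr19:34255438-34255467 and chr19:34255388-34255417 on the minus strand. The matched letters, in capitals, lie from -84 to -75 and from -34 to -25, counted from the RefSeq start site at 34255373, and lie inside the longer GENCODE model of the gene.
Acta2 upper site: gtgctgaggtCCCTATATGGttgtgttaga
Acta2 lower site: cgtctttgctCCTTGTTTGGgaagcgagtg
An exact CArG box on either strand is present in 1.47% of the 32851 RefSeq promoter windows of 250 bases before the start, and a box with 1 inner letter off in 7.24%. A match describes these letters and not binding.

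Tagln, on chromosome 9 (mm10, 45929619 to 45936058, minus strand), encodes transgelin (SM22 alpha), an actin-binding protein that is an early marker of smooth muscle. The gene had 30.6 and 27.1 CPM in WT, 40.7 and 45.2 in KO, 66.7 and 64.6 in the early rescue, and 43.2 and 39.9 in the late rescue. WT was lowest, the early rescue was highest, and KO and the late rescue overlapped. KO was above WT by 0.57 ± 0.11 (edgeR adjusted p = 0.000371), and the early rescue was above KO by 0.61 ± 0.10 (edgeR adjusted p = 0.000176) and above WT by 1.19 ± 0.11 (edgeR adjusted p = 1.86e-05). The late rescue differed from KO by -0.05 ± 0.11, which did not pass (edgeR adjusted p = 0.706), was above WT by 0.53 ± 0.11 (edgeR adjusted p = 0.00116) and below the early rescue with a log2 difference of -0.66 ± 0.10 (edgeR adjusted p = 0.000152). Tagln overlaps Pcsk7 and an antisense gene on the other strand, and its values were whole fragments in 8 of the 16 columns, so its level is uncertain to the extent that reads were shared between loci.

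Cnn1 encodes calponin, an inhibitor of the actomyosin ATPase, and lies on chromosome 9 (mm10, 22099216 to 22109630, plus strand). Its libraries gave 5.30 and 4.01 CPM in WT, 6.08 and 7.82 in KO, 4.66 and 6.32 in the early rescue, and 18.9 and 21.5 in the late rescue. The deposited table lists it under a span of 22055459 to 22389206 that it gives for 15 genes, each with values of its own, and the Cnn1 values were whole fragments in 16 of the 16 columns. The late rescue stood clear of the rest, whereas the early rescue overlapped both WT and KO. The late rescue was above KO by 1.55 ± 0.23 (edgeR adjusted p = 4.42e-05) and above WT by 2.12 ± 0.23 (edgeR adjusted p = 6.26e-06). KO was above WT by 0.57 ± 0.23 (edgeR adjusted p = 0.0445). That call was lost without WT library b (0.36, edgeR adjusted p = 0.318), KO library b (0.37, edgeR adjusted p = 0.237), either early rescue library or late rescue library b, where adjusted p was 0.0535 to 0.0561. It was also lost with the first technical column alone or with only the groups compared, and over all settings its adjusted p ran from 0.0249 to 0.318.

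Myh11, on chromosome 16 (mm10, 14194535 to 14291372, minus strand), encodes smooth muscle myosin heavy chain, the marker most restricted to differentiated smooth muscle. It had 0.472 and 0.505 CPM in WT, 1.87 and 0.917 in KO, 0.722 and 0.198 in the early rescue, and 1.31 and 0.564 in the late rescue. These are 9 to 128 counts a library, and the late rescue overlapped both KO and the early rescue. No difference passed: KO against WT was 1.52 ± 0.76 (edgeR adjusted p = 0.095), and the late rescue against KO was -0.59 ± 0.72 (edgeR adjusted p = 0.487) and against WT 0.93 ± 0.76 (edgeR adjusted p = 0.344). Against KO the early rescue was at -1.59 ± 0.75 (edgeR adjusted p = 0.0767), which passed without KO library b (-1.99, edgeR adjusted p = 0.047), without early rescue library a (-2.78, edgeR adjusted p = 0.032) and with no filter (-1.58, edgeR adjusted p = 0.0436). KO against WT passed with only the groups compared (1.54, edgeR adjusted p = 0.0343).

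Des encodes desmin, the intermediate filament protein that links myofibrils, and lies on chromosome 1 (mm10, 75360329 to 75368579, plus strand), overlapping an antisense gene. Its level was 9.54 and 8.73 CPM in WT, 13.5 and 17.5 in KO, 6.46 and 5.88 in the early rescue, and 170 and 179 in the late rescue. The 4 groups did not overlap, in the order early rescue, WT, KO and late rescue. KO was above WT by 0.76 ± 0.13 (edgeR adjusted p = 0.000209). The late rescue was above KO by 3.50 ± 0.13 (edgeR adjusted p = 8.08e-11), and the early rescue was below KO with a log2 difference of -1.32 ± 0.13 (edgeR adjusted p = 1.31e-06). The early rescue was also below WT, at -0.56 ± 0.14 (edgeR adjusted p = 0.0154), a call lost without WT library a (-0.495, edgeR adjusted p = 0.14), early rescue library a (-0.64, edgeR adjusted p = 0.055) or early rescue library b (-0.50, edgeR adjusted p = 0.114), and with limma on FPKM.

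Rgs5 encodes a regulator of G-protein signalling that is among the standard pericyte markers, and lies on chromosome 1 (mm10, 169655501 to 169695813, plus strand). Library values were 0.582 and 0.356 CPM in WT, 23.1 and 17.2 in KO, 0.944 and 0.375 in the early rescue, and 381 and 403 in the late rescue. WT and the early rescue overlapped at 12 to 51 counts a library, KO was well above both, and the late rescue was highest. KO was above WT by 5.42 ± 0.27 (edgeR adjusted p = 1.97e-09), the early rescue was below KO with a log2 difference of -4.90 ± 0.24 (edgeR adjusted p = 1.22e-09), and the late rescue was above KO by 4.27 ± 0.16 (edgeR adjusted p = 1.23e-10). The early rescue differed from WT by 0.52 ± 0.46, which did not pass (edgeR adjusted p = 0.525). Of the 7 genes, Rgs5 had the largest rise from WT to the late rescue, at 9.69 ± 0.25 (edgeR adjusted p = 5.59e-12).

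Des, Rgs5 and Cnn1 were each higher in KO than in WT and highest in the late rescue, and the stretches before their first exons are shown for the motifs they hold. They come from RefSeq (GRCm38.p6, plus strand), at chr1:75360042-75360291 for Des, chr1:169655251-169655436 for Rgs5 and chr9:22099003-22099215 for Cnn1. Capitals mark E-boxes (CANNTG) in Des and Cnn1 and, in Rgs5, a GATA motif (AGATAA) that lies on the minus strand.
Des: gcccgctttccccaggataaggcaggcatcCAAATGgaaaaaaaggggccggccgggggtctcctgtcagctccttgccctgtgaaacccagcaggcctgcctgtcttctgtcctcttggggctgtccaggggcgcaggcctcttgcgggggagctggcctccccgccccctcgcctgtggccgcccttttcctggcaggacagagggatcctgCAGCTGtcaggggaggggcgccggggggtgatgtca
Rgs5: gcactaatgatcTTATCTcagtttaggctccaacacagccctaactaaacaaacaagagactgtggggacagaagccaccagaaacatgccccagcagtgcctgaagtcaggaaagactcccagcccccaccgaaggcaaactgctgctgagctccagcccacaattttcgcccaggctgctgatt
Cnn1: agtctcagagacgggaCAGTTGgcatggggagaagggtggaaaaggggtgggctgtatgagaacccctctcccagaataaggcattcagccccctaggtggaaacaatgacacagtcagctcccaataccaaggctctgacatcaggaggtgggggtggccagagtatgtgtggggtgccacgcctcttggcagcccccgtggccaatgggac
No CArG box, exact or with 1 inner letter off, was found in the 250 bases before the start of these 3 genes. E-boxes are present in 66.2% of all such windows, and the GATA motif, searched on both strands, in 9.99%. E-boxes were not particular to these genes: the Acta2 window holds 3, of which 1 has the letters of that in Cnn1 and 1 those of the Des box nearer the start, beside 1 MCAT element (CATTCC) on the other strand, which 12.6% of windows hold. No match says only that the letters are not in this window. RefSeq windows were found for 4 of the 7 genes, and Tagln, Myh11 and Myocd are named without one.

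**Figure D2:**
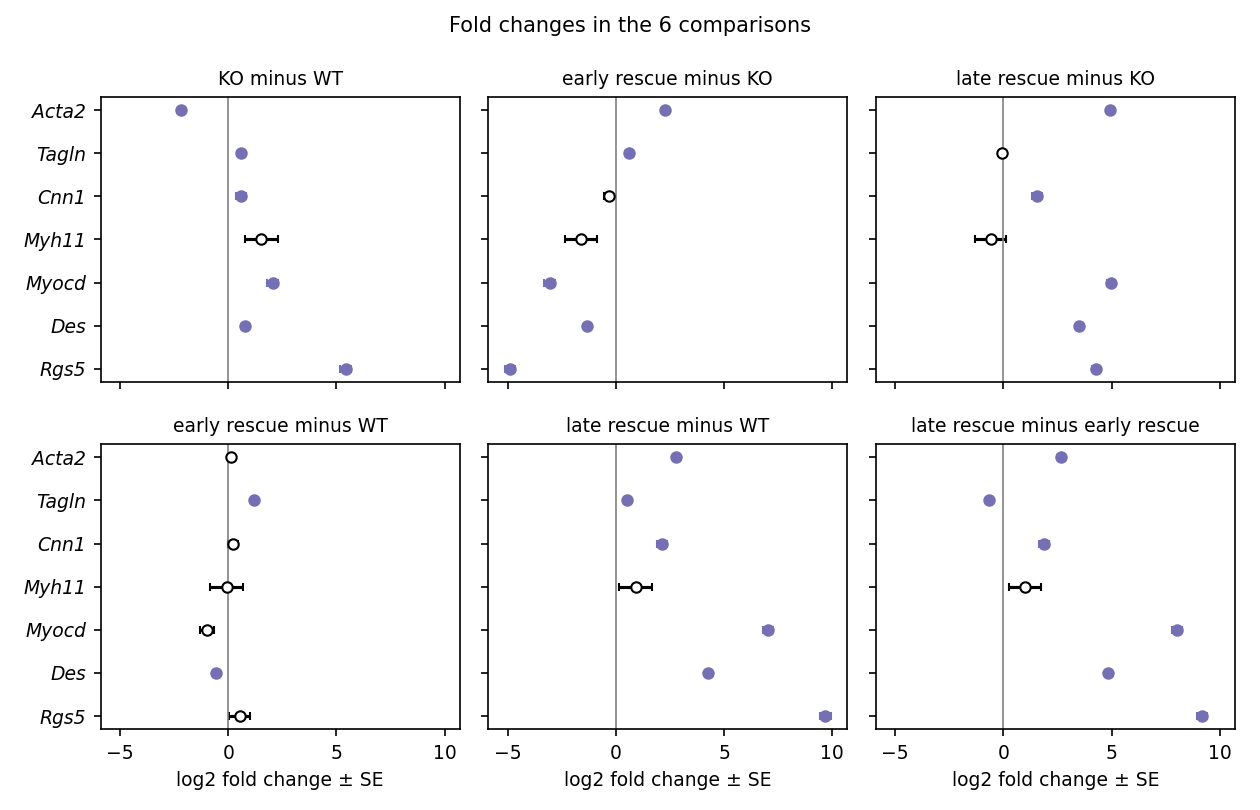
Log2 fold change of each of the 7 genes in the 6 comparisons, with bars of 1 SE; filled points passed edgeR's test at an adjusted p under 0.05 and open points did not. In the comparisons of the late rescue with KO, WT and the early rescue most points lie to the right of 0, and in the early rescue against WT most lie near it.

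Counted over the 7 genes, KO against WT gave 5 higher and 1 lower, and Myh11 did not pass. Of all genes tested, 64.1% were called in that comparison (31.7% higher and 32.4% lower), so the number called is not a result about these genes. The libraries of KO and WT did not overlap for 7 of the 7, beside 83.4% of all genes. Their median log2 fold change was 0.76, beside 0.00 over all genes tested. The early rescue against KO gave 2 higher (Acta2 and Tagln) and 3 lower (Myocd, Des and Rgs5), where 64.8% of all genes were called (32.8% higher and 32.1% lower), with a median of -1.32 beside -0.01. Those groups did not overlap for 6 of the 7, beside 83.3% of all genes. The late rescue against KO gave 5 higher and 0 lower, where 67.3% of all genes were called (34.2% higher and 33.2% lower), with a median of 3.50 beside -0.00. Here 5 of the 7 did not overlap, beside 82.7% of all genes. These comparisons share the KO libraries.

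Against WT, the early rescue gave 1 higher (Tagln) and 1 lower (Des) of the 7, where 14.0% of all genes were called (7.90% higher and 6.11% lower), with a median of 0.11 beside -0.00. No overlap was seen for 4 of the 7, beside 59.0% of all genes. That count is 1 without WT library a or either early rescue library. The late rescue against WT gave 6 higher and 0 lower, where 47.3% of all genes were called (23.9% higher and 23.4% lower), with a median of 2.78 beside -0.04 over all genes. For 7 of the 7 the libraries did not overlap, beside 73.5% of all genes. The late rescue against the early rescue gave 5 higher and 1 lower, where 50.2% of all genes were called (24.9% higher and 25.3% lower), and the gene that was lower was Tagln. Of the 7, 6 did not overlap, beside 74.3% of all genes.

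Levels can be compared between genes only per length, in FPKM (fragments scaled for transcript length and library size). In WT the order of mean FPKM was Acta2 at 21.2, Tagln at 17.1, Des at 3.85 and Cnn1 at 2.14, followed by Rgs5, Myocd and Myh11 at 0.124 or less, of which Rgs5 and Myocd overlapped. In KO the order was Tagln at 26.9, Des at 6.90, Acta2 at 5.03, Rgs5 at 4.88, Cnn1 at 3.36, Myocd at 0.367 and Myh11 at 0.188, and Acta2 and Rgs5 overlapped. The early rescue had Tagln first at 38.9 and Acta2 next at 23.0. Des at 2.60 and Cnn1 at 2.53 overlapped there, and the last 3 genes lay at 0.138 or less. In the late rescue the order was Acta2 at 145, Rgs5 at 79.1, Des at 73.1, Tagln at 24.5, Myocd at 11.2, Cnn1 at 9.25 and Myh11 at 0.119, where Myocd and Cnn1 overlapped. Tagln thus made up 56.4% of the summed FPKM of the 7 genes in KO and 7.16% in the late rescue.

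Acta2 is one of 4 muscle actin genes, beside the skeletal Acta1, the cardiac Actc1 and the enteric smooth muscle Actg2. In WT, Acta2 gave 83.5% and 79.0% of their summed FPKM in libraries a and b, and in the early rescue 74.8% and 75.3%. In KO its share was 23.5% and 24.6%, and Acta1 gave 71.5% and 70.8%. The late rescue had 75.4% and 69.6% Acta2 and 22.5% and 28.1% Actc1. Actg2, the second smooth muscle actin, was at 1.01% and 1.03% there. By edgeR's test Acta1 was higher in KO than in WT by 1.84 ± 0.20 (adjusted p = 3.5e-06), and Actc1 was higher in the late rescue than in KO by 5.93 ± 0.19 (adjusted p = 2.67e-11). These genes are close paralogs, so reads that fit several of them may have been split.

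**Figure D3:**
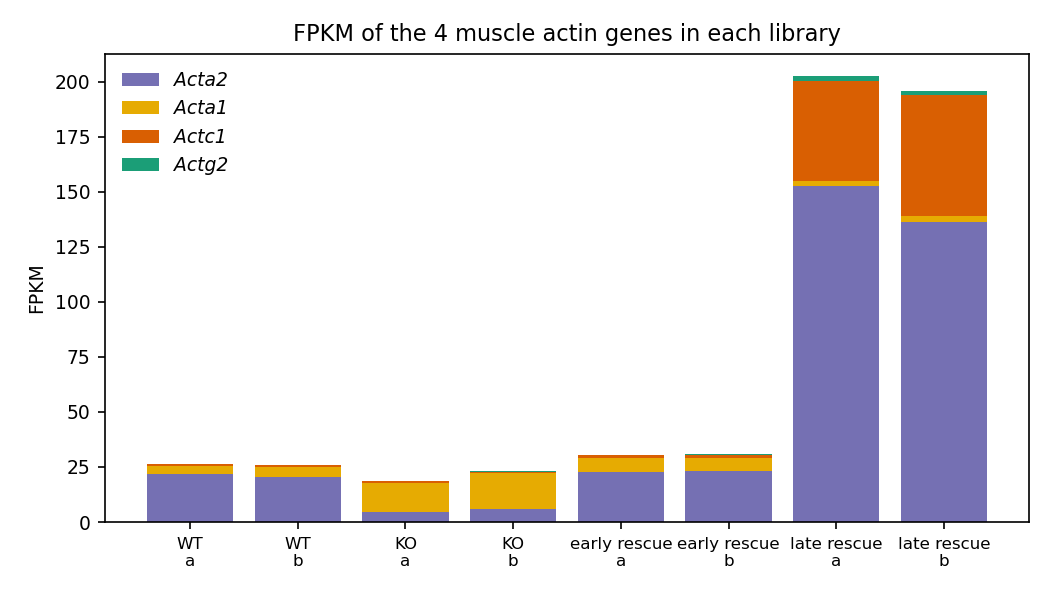
Stacked FPKM of the 4 muscle actin genes in each of the 8 libraries. Acta2 makes up most of the bar in WT, the early rescue and the late rescue, Acta1 makes up most of the short KO bars, and Actc1 gives 22.5% and 28.1% of the late rescue bars.

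Markers of other cell types that use these genes moved in the late rescue as well. The summed level of 16 cardiac muscle markers, at 15 loci, was 27.3 to 28.8 CPM in WT, 95.4 to 111 in KO, 27.4 to 29.1 in the early rescue and 1036 to 1130 in the late rescue. Against KO, 11 of these 15 loci were higher and 2 lower in the late rescue, and none was at 0 counts there. That is a share of 86.7%, beside 67.3% over all genes (34.2% higher and 33.2% lower). The 2 lower were Myl3 and Tnni3. Myl3 averaged 8.32 CPM in the late rescue against 13.5 in KO, and Tnni3 averaged 1.31 against 2.86. Cardiac troponin T, Tnnt2, stood at 138 and 133 CPM in the late rescue and at 2.04 and 3.29 in KO. The heart transcription factor Nkx2-5 was at 11.0 and 14.1 CPM in the late rescue and at 0.111 CPM or less in every other library. The part of cardiac cells in the levels of Acta2, Cnn1, Myocd, Des and Rgs5 was not tested.

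Fibroblast and mesenchyme markers summed to 1773 to 1906 CPM in the late rescue and 224 to 385 in the other groups. In the late rescue 10 of 13 were higher and 1 lower than in KO, a share of 84.6% beside 67.3% over all genes. The 1 lower was Thy1, at 0.518 and 2.18 CPM against 5.59 and 5.91 in KO. Endothelial markers reached 782 to 810 CPM in the late rescue against 95.4 to 152 elsewhere. There, 8 of 9 were higher and 0 lower than in KO, a share of 88.9% beside 67.3% over all genes. The sums elsewhere came from different genes. Kdr averaged 83.7 CPM in WT, 127 in the early rescue and 1.89 in KO. Cdh5 and Tek averaged 52.2 and 54.6 CPM in KO, against 2.8 and 2.6 in WT. Epicardial and mesothelial markers reached 143 to 169 CPM against 7.07 to 9.34 elsewhere. Bnc1 was at 117 and 101 CPM in the late rescue, Upk3b at 29.3 and 20.8 and Tcf21 at 12.4 and 12.5. Upk3b and Tcf21 were at 0.389 CPM or less in every library of the other groups. Wt1, Aldh1a2, Tbx18 and Sema3d were at 1.47 to 3.26 CPM in the late rescue. Msln was at 0 counts in the late rescue and at 0.425 CPM or less elsewhere. Of 7 tested, 5 were higher and 0 lower than in KO, a share of 71.4% that is close to the 67.3% over all genes. Skeletal muscle markers were highest in KO, at 35.8 to 41.7 CPM, of which Acta1 gave 19.8 and 24.2 and Ckm 6.40 and 6.83. They summed to 6.85 to 8.61 CPM in WT, 9.94 to 10.7 in the early rescue and 7.89 to 8.77 in the late rescue. In KO, Myh3 was at 3.47 and 2.91 CPM, Myog at 1.16 and 1.30 and Myod1 at 0.820 and 0.863. Each was at 0.653 CPM or less in every library of the other groups. Each was higher in KO than in WT (edgeR adjusted p = 0.0259, 0.00946 and 0.0136). Myf5, Myf6, Tmem8c and Myh8 were at 0 counts in the late rescue and at 0.863 CPM or less in every library. Eye field and neural progenitor markers, the tissue this culture favours, were at 1497 to 1558 CPM in WT. They fell to 45.1 to 47.99 CPM in the late rescue and 132 to 137 in KO, with 8 of 8 lower than in WT in both. Over all genes, 23.4% were lower in the late rescue than in WT and 32.4% lower in KO than in WT. Pluripotency markers were at 662 to 673 CPM in KO and 28.9 to 29.9 in the late rescue. The part of these cell types in the levels of the 7 genes was not tested.

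**Figure D4:**
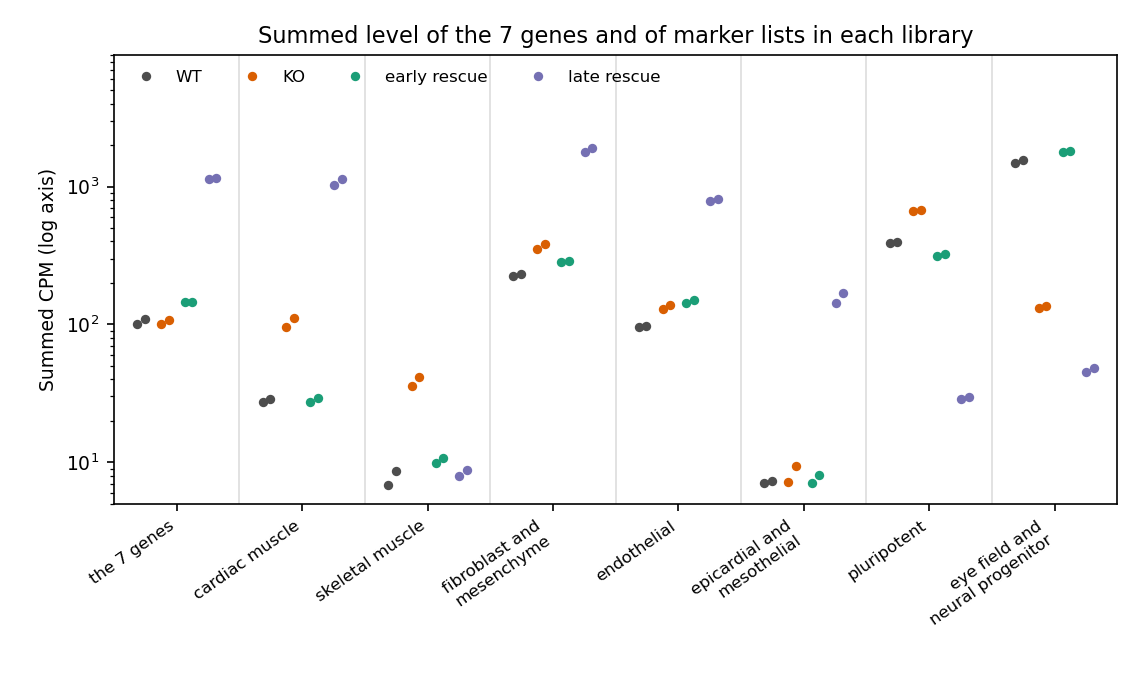
Summed CPM of the 7 genes and of 7 lists of cell type markers, on a log axis; each colour is a group and its 2 points are the library with the lower and the higher sum. Cardiac, fibroblast, endothelial and epicardial sums are highest in the late rescue together with the 7 genes, and eye field sums are lowest there.

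The wider contractile and cytoskeletal list held 34 genes, of which 33 were found and tested. In the late rescue 23 were higher and 5 lower than in KO, a share of 84.8% beside 67.3% over all genes, with a median of 0.66. The 3 with the smallest adjusted p were Csrp2, a LIM protein of smooth muscle, at 528 and 488 CPM against 112 and 110 in KO, the calponin Cnn2 at 212 and 208 against 49.7 and 52.1, and Nexn, an actin filament protein of striated muscle, at 109 and 108 against 1.83 and 2.40. Their log2 fold changes were 2.19 ± 0.08, 2.04 ± 0.08 and 5.71 ± 0.22 (edgeR adjusted p = 5.64e-11, 1.05e-10 and 1.13e-10). The 5 lower were Fhl2, Lmod1, Mylk, Synm and Tagln2.

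Mylk encodes myosin light chain kinase, which starts smooth muscle contraction, and it did not follow Acta2 in the late rescue. Its level was 114 and 120 CPM in WT, 5.59 and 5.50 in KO, 123 and 117 in the early rescue, and 3.30 and 3.73 in the late rescue. Both Mylk and Acta2 were lower in KO than in WT, Mylk with a log2 difference of -4.40 ± 0.10 (edgeR adjusted p = 3.35e-12), and both were higher in the early rescue than in KO. In the late rescue Mylk was below WT by -5.06 ± 0.11 (edgeR adjusted p = 1.18e-12), where Acta2 was above it. Tagln2, the transgelin found outside smooth muscle, was at 253 and 259 CPM in KO and 58.3 and 52.0 in WT, a log2 difference of 2.21 ± 0.08 (edgeR adjusted p = 9.05e-11).

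For the same list KO against WT gave 18 higher and 10 lower, a share of 84.8% beside 64.1% over all genes. The median was 0.49. The early rescue against KO gave 12 higher and 14 lower, a share of 78.8% beside 64.8%, with a median of -0.29. The early rescue against WT gave 8 higher, with Tpm4 and Myl9 first, and 1 lower, Synm. Their total of 9, a share of 27.3% beside 14.0% over all genes, was 5 without early rescue library b. The late rescue against WT gave 25 higher and 4 lower, the latter being Mylk, Pdlim5, Ppp1r12b and Synm. That is 87.9% of the list, beside 47.3% over all genes.

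**Figure D5:**
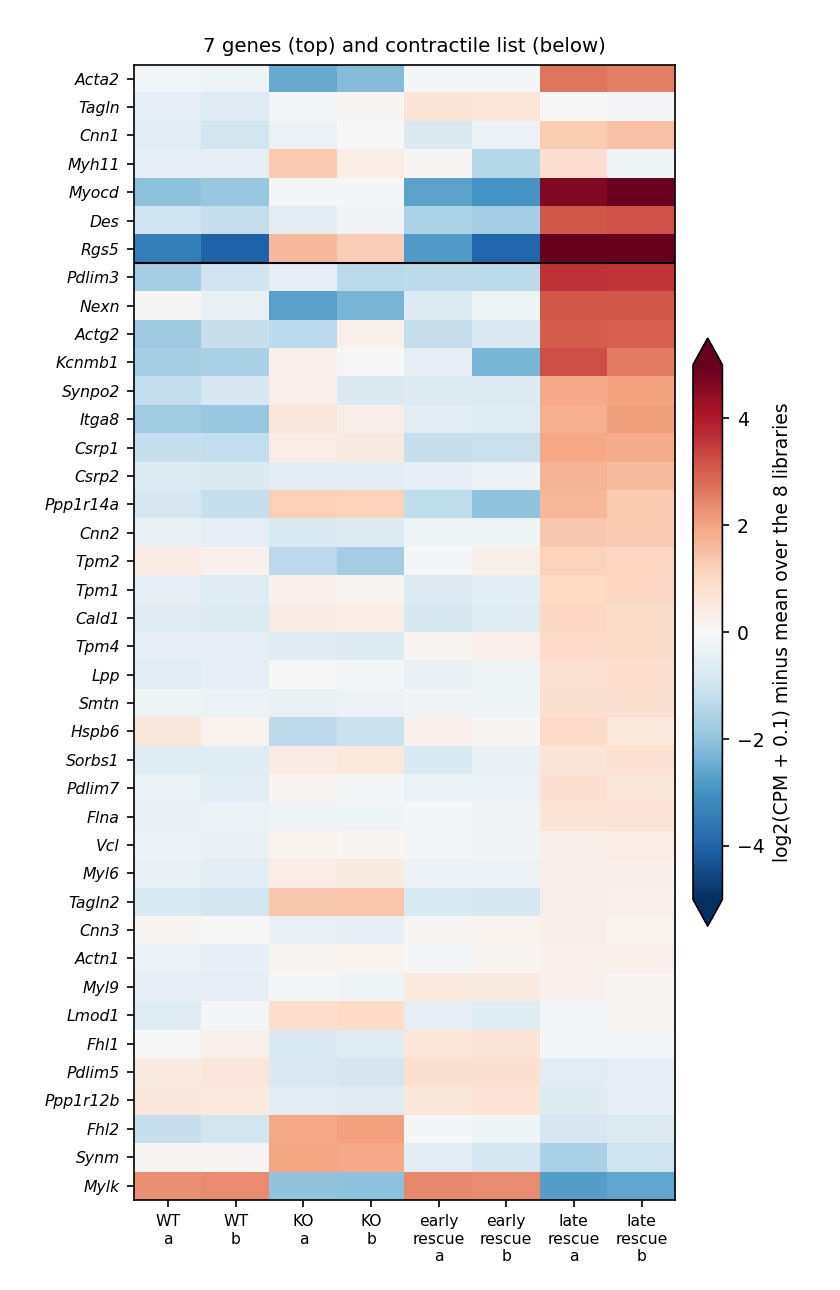
Log2(CPM + 0.1) of the 7 genes and of the 33 contractile and cytoskeletal genes, each minus its mean over the 8 libraries, with columns for libraries and the lower block ordered by the late rescue level. Most rows are highest in the 2 late rescue columns, and Mylk, at the bottom, is high in WT and the early rescue and low in KO and the late rescue.

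Among 29 genes of the SRF and myocardin network, 16 were higher and 9 lower in the late rescue than in KO, a share of 86.2% beside 67.3% over all genes, with a median of 0.35. Srf itself was at 68.7 and 68.2 CPM in WT, 97.6 and 102 in KO, 78.45 and 66.2 in the early rescue, and 107 and 117 in the late rescue. KO lay above WT by a log2 difference of 0.54 ± 0.09. The late rescue lay above KO by 0.17 ± 0.09, which did not pass (edgeR adjusted p = 0.118). Mkl1, which encodes the myocardin-related coactivator MRTF-A, was at 37.8 to 51.3 CPM over the 8 libraries and passed in none of the 6 comparisons. Mef2c, a myogenic transcription factor, was at 24.5 and 23.2 CPM in WT, 1.44 and 2.08 in KO and 215 and 239 in the late rescue, which exceeded KO by 7.07 ± 0.16 (edgeR adjusted p = 2.36e-12). Hey2, a Notch target of heart and arteries, exceeded KO by 4.55 ± 0.18 (edgeR adjusted p = 1.34e-10). Ctgf, a matricellular SRF and YAP target, was below KO with a log2 difference of -3.31 ± 0.09 (edgeR adjusted p = 5.03e-12), at 19.7 and 19.5 CPM against 191 and 197. KO against WT gave 15 higher, with Gata6 first at 2.35 ± 0.09 (edgeR adjusted p = 1.34e-10), and 6 lower, with Mef2c first. Their share of the list, 72.4%, is not far from the 64.1% over all genes.

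Of 24 pericyte and mural genes, 22 were tested, and the late rescue against KO gave 11 higher and 4 lower with a median of 0.73. The share called, 68.2%, is close to the 67.3% over all genes tested, so the count is not a result about this list. Pdgfrb, the receptor that defines pericytes, was at 10.8 and 8.10 CPM in WT, 2.34 and 2.32 in KO, 6.59 and 5.71 in the early rescue, and 89.1 and 93.4 in the late rescue. The late rescue exceeded KO by 5.29 ± 0.18 (edgeR adjusted p = 3.69e-11). In KO, Pdgfrb was low where Rgs5 was raised above WT. Ednra, an endothelin receptor of vessel muscle, and the transcription factor Tbx2 exceeded KO by 3.95 ± 0.13 and 7.38 ± 0.35 (edgeR adjusted p = 3.89e-11 and 9.39e-10).

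The rest of the pericyte list did not go one way. Heyl, Mcam, Notch3 and S1pr3 were lower in the late rescue than in KO. Heyl was at 0 counts in both late rescue libraries and at only 0.703 and 0.135 CPM in KO. Kcnj8 and Higd1b, which are among the most specific brain pericyte markers, were also at 0 counts in the late rescue. They were near 0 in every group, at no more than 0.308 and 0.486 CPM in any library, and were not tested. Cspg4, which encodes the pericyte proteoglycan NG2, was at 3.21 and 2.62 CPM in KO and 1.66 and 1.64 in the late rescue, a difference of -0.82 ± 0.55 that did not pass (edgeR adjusted p = 0.204). KO against WT gave 8 higher and 6 lower, a share of 63.6% beside 64.1% over all genes, and Rgs2 and Nr2f2 were lower with the smallest adjusted p, at -5.10 ± 0.15 and -5.45 ± 0.17 (edgeR adjusted p = 1.87e-11 and 2.49e-11).

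Of 25 signals that recruit mural cells, 24 were tested, and 13 were higher and 8 lower in the late rescue than in KO, a share of 87.5% beside 67.3% over all genes, with a median of 0.64. The ligands Tgfb2 and Tgfb1, which drive smooth muscle differentiation, were at 355 and 349 CPM and at 68.7 and 71.6 CPM in the late rescue, against 6.17 and 11.0 and against 0.776 and 2.00 in KO. They exceeded KO by 5.401 ± 0.206 and 5.759 ± 0.305 (edgeR adjusted p = 1.17e-10 and 2.56e-09). The third ligand gene, Tgfb3, did not follow them, at 1.14 and 0.735 CPM in the late rescue, 1.89 and 1.30 in KO and 5.66 and 5.61 in WT. It differed from KO by -0.78 ± 0.36, which did not pass (edgeR adjusted p = 0.0698), and was below WT at -2.59 ± 0.36 (edgeR adjusted p = 5.24e-05). The 8 lower than in KO were Edn1, Pdgfa, Notch1, Angpt2, Notch2, Tgfbr2, Jag1 and Smad3, with log2 fold changes of -2.68 to -0.21. Tek, the endothelial angiopoietin receptor, was at 2.75 and 2.40 CPM in WT, 54.5 and 54.7 in KO, 5.90 and 5.68 in the early rescue, and 195 and 170 in the late rescue. That is the order Rgs5 also had between KO, WT and the late rescue. Edn1, the endothelin ligand, was below WT in the late rescue with a log2 difference of -5.71 ± 0.20 (edgeR adjusted p = 6.95e-11), where the receptor gene Ednra was above it by 4.13 ± 0.14 (edgeR adjusted p = 3.63e-11).

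For each of the 7 genes the tested genes with the most similar profile over the 8 libraries were found by the root-mean-square difference of log2 CPM after centring, where 0 is identical. Acta2 was nearest to Hspa12b (0.212), the collagen cross-linking enzyme gene Loxl1 (0.256) and Sdk2 (0.281). Tagln was nearest to Gipc1 (0.126), Pard6a (0.143) and Zfp703 (0.146), and Cnn1 to Rgl1 (0.154), the caveolar gene Ptrf (0.191) and Arid3b (0.197). Des was nearest to the chemokine receptor gene Cxcr7 (0.249), the hyaluronan synthase gene Has2 (0.273) and Fkbp7 (0.338).

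Myocd was nearest to the ligand gene Bmp5 (0.412), the striated muscle gene Trim55 (0.447) and a locus that joins Mir1903 and Nrp1 (0.481). Rgs5 was nearest to the Nodal co-receptor gene Cfc1 (0.686), Bnc1 (0.736) and Tnnt2 (0.748). Myh11, on few counts, was nearest to Ppp2r2b (0.357), Rel (0.410) and Shc4 (0.414). Within the 7 genes the closest pair was Tagln and Cnn1 at 0.928 and the farthest was Tagln and Rgs5 at 3.997. Each of the 7 was nearer to genes outside the set than to any within it, but those were picked from all 16130 genes tested. The comparison therefore cannot say whether the 7 genes share a profile more than other genes do. Profiles over 8 libraries in 4 groups are dominated by group differences, and many genes share them.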

How the data were processed

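RNA-seq of 16 samples (4 groups of 2 duplicates, each with 2 technical runs) was analysed. The build was mm10 and the tools were Cufflinks 2.2.1, TopHat2 2.1.1, deepTools and SAMtools 1.5, per the submitters' processing notes. Gene models and strandedness were not given in the sources used here. Per the file headers, the deposited tables hold estimated counts and FPKM per locus. The deposited counts had been multiplied by 1 factor per column (1 fragment was worth 0.630 to 1.29). Dividing it out made 90.9% to 92.0% of nonzero values whole within 0.02 fragments, and the estimated counts were then rounded. The columns name the group but neither run nor duplicate. Columns were paired by chi-square of counts (1.62 to 1.85 per degree of freedom within pairs, 9.54 to 17.4 between) and summed to 8 libraries.

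Loci without a name (5143, with 3.16% to 6.12% of counts) and 8 loci marked as holding too many fragments were left out, and 112 companion columns were not used. Genes were tested with edgeR 4.0.16 (R 4.3.3; quasi-likelihood F-test, TMM, filterByExpr, Benjamini-Hochberg over 16130 genes, threshold 0.05). All 4 groups were in 1 fit, with 4 residual degrees of freedom. FPKM were used for order between genes and for limma 3.58.1 alternatives, and DESeq2 1.42.0 was another. The test was checked on simulated data. CPM here are TMM-scaled.

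The 7 genes and all lists were chosen with earlier results of these data known. The naming rule took the 7 genes, Wdr5, the up to 3 smallest adjusted p per list in the late rescue against KO, up to 2 in other comparisons, list genes in a count of 5 or fewer, defining markers of other cell types where their presence is given, and the 3 most similar profiles. Srf, Mkl1, Cspg4, Tgfb3, the 8 lower recruitment genes, Actc1, Acta1, Actg2 and the receptor gene Ednra beside Edn1 were named after their values were seen. So were Bnc1, Upk3b, Tcf21, Wt1, Aldh1a2, Tbx18 and Sema3d among epicardial markers, and Kdr, Cdh5 and Tek among endothelial markers. Ckm, Myh3, Myog and Myod1 among skeletal muscle markers were too. Coordinates are from GENCODE vM21 on GRCm38, the build mm10, and sequences are from RefSeq GRCm38.p6.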

Additional observations from a re-analysis of the deposited data

How the results depend on the processing

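Each result was recomputed under 17 alternative settings: other normalisations, filters, tools and technical columns, FPKM, only the groups compared, and leaving out each library. Of 714 recomputed fold changes of the 7 genes, 684 kept their direction and side of the threshold, 13 lost the call, 10 gained it and 7 turned direction. Turned values were all in differences that had not passed. With the second technical column alone, Cnn1 and Rgs5 in the early rescue against WT were -0.003 and -0.199. With 1 library left out, ranges were -0.000 to 0.455 for Cnn1, -1.289 to 0.560 for Myh11 and -0.337 to 0.990 for Rgs5 in the early rescue against WT, and -0.162 to 0.038 for Tagln in the late rescue against KO.

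Counts of calls for the 7 genes and the 4 wider lists moved by over 1.5 times in the early rescue against WT and in no other comparison. Of the marker lists, 34 of 714 counts moved, 29 of them there. The other 5 were skeletal muscle in KO against WT (9 called, 3 without either WT library) and in the late rescue against WT (3 called, 1 without WT library b), fibroblast in the early rescue against KO (8 called, 5 with only the groups compared), and epicardial between the rescues (7 called, 4 without early rescue library b). In the early rescue against WT, 1 of the 7 genes was called with limma on log2(FPKM + 1) and 1 on log2(FPKM + 0.1). With a library left out, 5 to 10 contractile, 6 to 13 SRF and myocardin, 4 to 7 pericyte and 5 to 10 recruitment genes were called there. On log2(FPKM + 0.1) 3 pericyte genes were called, and on log2(FPKM + 1) 5 recruitment genes. Upper-quartile scaling put the median of all genes at -0.147 in the late rescue against KO, -0.163 against WT and -0.115 against the early rescue. No paired analysis was possible because the columns carry neither run nor duplicate numbers. Depth limits Myh11, and Myocd and Rgs5 in WT and the early rescue, to 9 to 128 counts a library.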
